A study of Mus musculus with 24 samples.

Results

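ERV1 elements are the class I endogenous retroviruses of the mouse genome, related to the gammaretroviruses. Members of the group were taken from the name of each repeat subfamily in the MeRIP-seq count table, as every ERV1 subfamily except RLTR30D_RN, RLTR1B-int and MER89; RLTR10F was also excluded but is not listed as ERV1. The table lists 149 ERV1 subfamilies, and 146 were members, of 1153 repeat subfamilies and 49090 features (genes and repeats) in all.

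The data come from mouse embryonic stem (ES) cells in 4 lines: WT26, a wild type line; Mettl14 KO, a CRISPR clone (A10) whose control is WT26; RBC, the control of the other knockout; and Mettl3 KO (the 2c4d clone). RBC cells carry Rosa26 BirA-V5 and Cre-ERT2, and so do the Mettl3 KO cells. Clone A10 came from a co-transfection of guides to Mettl3 and Mettl14, and the study reports that the catalytic domain of Mettl3 is intact in it. Each knockout is represented by 1 clone, and all cells were cultured on gelatin with LIF and 15% Serum Replacement. Nuclear RNA of each line was sequenced as input and after immunoprecipitation with an antibody to N6-methyladenosine (m6A; IP), in 2 replicates, which gives 16 MeRIP-seq libraries, and 8 RNA-seq libraries hold gene counts of the same 4 lines.

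A retroviral insertion starts as a provirus, in which a pair of identical long terminal repeats (LTRs) flanks an internal region with the gag, pol and often env genes. The LTR holds the promoter and the polyadenylation signal, and recombination between both LTRs leaves many copies as a solitary LTR. Repeat annotations therefore name the internal region (ending in -int) and the LTR as separate subfamilies. In ES cells these elements are held down by KRAB zinc finger proteins, which recruit Trim28 and the H3K9 methyltransferase Setdb1, and by DNA methylation. Mettl3 is the catalytic subunit of the m6A methyltransferase, and Mettl14 is its RNA-binding partner.

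Of the 146 members, 29 are internal regions and 117 are LTRs. By their names, 24 belong to mouse gammaretrovirus-like elements, 38 have another rodent name, and 84 have a name shared with other mammals (the MER and LTR series), which marks older insertions. A count was found for 145 members, MER83A-int having none, and 127 members had enough counts to be tested. The 19 others, RLTR1 and 18 with a shared name, never exceeded 15 raw counts in a library. The members tested comprise 9 internal regions and 14 LTRs of mouse gammaretrovirus-like elements, 38 of other rodent names and 66 of shared names.

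The MeRIP-seq libraries held 9394163 to 28441282 counts, of which 0.386% to 0.739% fell on the 146 members. RNA-seq libraries held 11321459 to 13743181 counts. All 10 ES cell markers had a median above 50 normalized RNA-seq counts in each line. Their summed level was 39628 to 40508 in WT26 and 27737 to 27921 in Mettl14 KO, and 35639 to 35860 in RBC and 21881 to 22330 in Mettl3 KO, so it was lower in both knockouts. This compares with a summed level of 27.3 to 116 for 7 fibroblast markers (1 of them at 0), 54.8 to 246 for 6 primitive endoderm markers (246 in both Mettl14 KO libraries, 82.7 and 90.4 in WT26), 24.6 to 59.1 for 5 mesoderm markers and 638 to 1168 for 5 neural markers. The primitive endoderm sum was 54.8 to 65.5 in Mettl3 KO against 90.7 to 107 in RBC. The neural sum was 638 to 650 in Mettl14 KO against 840 to 844 in WT26. In Mettl3 KO it was 1120 to 1168 against 973 to 989 in RBC. Transcripts of the targeted genes remained: Mettl14 had 296 and 316 normalized RNA-seq counts in Mettl14 KO against 401 and 358 in WT26, and Mettl3 had 880 and 821 in Mettl3 KO against 928 and 979 in RBC. Gene counts do not show a frameshift or a small deletion, so they check the genotypes only weakly.

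In the MeRIP-seq data the IP libraries with number 2 stood apart from those with number 1 in every line. On the log2 scale of normalized counts, the median member was lower in IP 2 than in IP 1, by 0.72 (WT26), 0.80 (Mettl14 KO), 0.80 (RBC) and 0.51 (Mettl3 KO), and 107, 117, 116 and 113 of 127 members were lower. The gammaretrovirus-like internal regions went another way in the control lines: 9 of 9 in WT26 and 8 of 9 in RBC were higher in IP 2, against 3 of 9 in each knockout. The RBC libraries with number 2 also held more reads of Y-linked genes than those with number 1 (Uty, a histone demethylase gene, 310 against 36.0 normalized counts in input). Counts of calls are therefore also given without single replicates, and medians of IP over input by replicate number. A replicate left out took both its input and its IP, or its input alone in the fit to inputs. The study describes the 2 replicates as biological. The p-values measure the spread between replicates, estimated over all libraries of a fit and not only over those compared.

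The members took up a similar share of the input reads in all 4 lines, 0.576% ± 0.0624 in WT26, 0.579% ± 0.0260 in Mettl14 KO, 0.627% ± 0.0789 in RBC and 0.649% ± 0.0236 in Mettl3 KO (mean ± SD, n = 2). These shares overlapped between Mettl14 KO and WT26 and between Mettl3 KO and RBC. Counts are reads of a subfamily summed over all its genomic copies, so they depend on copy number and length and do not rank the expression of different members. In bulk RNA, fewer cells with a transcript and less transcript per cell cannot be told apart.

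The members with the most input reads were RMER5 and MLTR14, both LTRs of rodent elements, with means of 11097 and 9559 normalized counts over the 8 input libraries. The internal region of MMERGLN, a mouse gammaretrovirus named after the glutamine tRNA used as its primer, followed with 8251. LTRIS2 (4626), RLTR4_MM-int (4625), from a relative of murine leukemia virus, RLTR6-int (4203), MMVL30-int (3349), from the VL30 retrotransposon, RodERV21-int (3140), RLTR14-int (2853) and MERV1_I-int (2583) complete the 10 highest. Internal regions thus made up 7 of the 10.

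**Figure D1:**
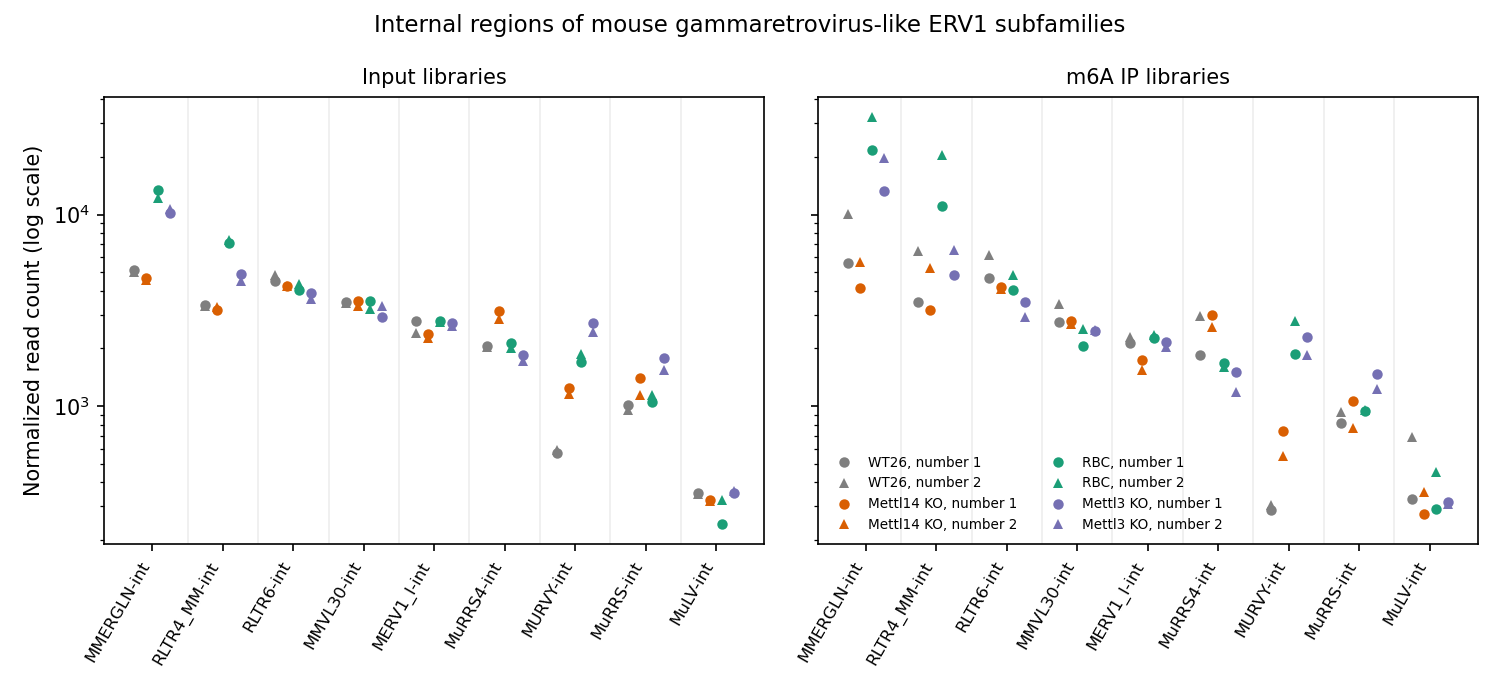
Normalized counts (log axis, reads of a subfamily per library after scaling by size factors) of the 9 gammaretrovirus-like internal regions, in the input libraries and in the IP libraries, with 1 point for each library, colored by line and marked by replicate number. In the input libraries MMERGLN-int, RLTR4_MM-int and MURVY-int show RBC and Mettl3 KO above WT26 and Mettl14 KO. In IP, RBC lies above the other lines for RLTR4_MM-int, and those lines overlap each other.

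Most ERV1 subfamilies were low in the m6A IP relative to the typical feature of the same libraries. The internal regions of mouse gammaretrovirus-like elements lay highest, and of these only MMERGLN-int and RLTR4_MM-int were called higher in IP than in input, in RBC. A member was called where edgeR's quasi-likelihood test gave a Benjamini-Hochberg adjusted p of at most 0.05 over all 22621 features tested and the log2 fold change exceeded 1 in size.

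In WT26, 57 of 127 members (44.9%) were called lower in IP, against 13.5% of all features, and 0 were called higher, against 14.5%. In RBC, 41 (32.3%) were lower, against 11.1% of features, and 2 (1.57%) were higher, against 13.4%. In Mettl14 KO, 39 (30.7%) were lower, against 9.91%, and 0 were higher, against 11.9%. In Mettl3 KO, 1 (0.787%), LTR78B, was lower (4 with DESeq2, 11 without the filter on low counts), against 1.86%, and 0 were higher, against 2.54%. In WT26, Mettl14 KO and Mettl3 KO no member was higher at an unadjusted p under 0.05 in edgeR, and DESeq2 called 0 higher in each of the 3.

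The median log2 ratio of IP to input over the 127 members was -1.20 in WT26, -1.02 in RBC, -0.99 in Mettl14 KO and -0.58 in Mettl3 KO. The median of all features was 0.02, 0.02, 0.01 and -0.01. Low values were not particular to ERV1, since the median over all repeat subfamilies tested was -1.29, -1.15, -1.10 and -0.68 in the same order.

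Leaving out 1 replicate removed both its input and its IP and left 1 of each in that line. A call lost there does not show that it rested on 1 library. Without WT26 replicate 2 the count of lower members in WT26 went from 57 to 0, without RBC replicate 2 it went from 41 to 0 in RBC, and without Mettl14 KO replicate 2 it went from 39 to 0 in Mettl14 KO; the remaining pair of libraries was then taken to vary like the other lines. In Mettl3 KO the 1 member went to 0 without WT26 replicate 1 or 2 or Mettl3 KO replicate 1 or 2, and to 2 without Mettl14 KO replicate 1 or 2. A block on the replicate number within input and within IP takes up the difference between IP 1 and IP 2. With this block the counts of lower members were 78 in WT26, 67 in RBC, 67 in Mettl14 KO and 20 in Mettl3 KO. The shares of all features given above are from the fit without the block and do not apply to these counts. The direction also depends on scaling. With size factors computed from repeats only, the median of all features rose to 1.46 in WT26, 1.32 in RBC, 1.26 in Mettl14 KO and 0.74 in Mettl3 KO, the members had medians of 0.11, 0.16, 0.14 and 0.09, and the called members split into 13 higher and 2 lower (WT26), 10 and 3 (RBC), 6 and 2 (Mettl14 KO), and 0 and 0 (Mettl3 KO). Other size factors shift the ratios of all features in a line nearly alike. The median member therefore stayed below the median feature in all 4 lines, an order that scaling cannot test.

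RMER5 illustrates the LTRs. Its normalized counts were 10237 and 10519 in the WT26 inputs and 4952 and 3336 in the IPs; in RBC they were 10670 and 11949 against 6037 and 3470. In Mettl14 KO the inputs held 10320 and 11739 and the IPs 6138 and 3644, and in Mettl3 KO 11519 and 11826 against 8191 and 5598. Every IP value was below every input value of all lines, and the IP values of Mettl3 KO were the highest for their number. The log2 ratio of IP to input was -1.32 in WT26 (adjusted p = 0.0122), -1.25 in RBC (0.0180), -1.17 in Mettl14 KO (0.0235) and -0.76 in Mettl3 KO (0.168).

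MLTR14 gave much the same picture, with log2 ratios of -1.23, -1.19, -1.18 and -0.74 in WT26, RBC, Mettl14 KO and Mettl3 KO. Its IP counts ran from 3049 to 7009 and its input counts from 9023 to 10160, without overlap. With repeat size factors the ratios of RMER5 and MLTR14 in WT26 and of MLTR14 in RBC lay just above 0 and were not called.

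LTR78B, an old LTR with a shared name, was the member called lower in all 4 lines. It had 363 and 386 normalized counts in the WT26 inputs and 167 and 137 in the IPs, 377 and 453 against 176 and 132 in RBC, 337 and 410 against 147 and 112 in Mettl14 KO, and 349 and 397 against 207 and 126 in Mettl3 KO. Inputs and IPs did not overlap in any line. The log2 ratios were -1.30, -1.42, -1.51 and -1.15, with adjusted p of 0.00775, 0.00846, 0.00788 and 0.0341. With repeat size factors the sign of the WT26 ratio turned, and the Mettl3 KO ratio was -0.48 (edgeR adjusted p = 0.295). With the input and IP of 1 RNA sample as a pair block, the Mettl3 KO ratio was -1.19 (adjusted p = 0.0626), so no member was called there. Without Mettl3 KO replicate 1 the ratio was -1.66 (adjusted p = 0.153), and without replicate 2 it was -0.75 (adjusted p = 0.854).

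The largest decreases among called members with at least 50 normalized counts were RLTR30B_MM (-1.76), MER90 (-1.75), MER57C2 (-1.69), RLTR30 (-1.67) and MER65D (-1.66) in WT26. In RBC they were MER65-int (-2.33), MER65D (-1.79), MER90 (-1.72), LTR73 (-1.66) and RLTR30 (-1.64), and in Mettl14 KO MER57-int (-1.70), RLTR30B_MM (-1.57), LTR78B (-1.51), MLTR12 (-1.50) and MER90a (-1.49). RLTR30B_MM, for example, went from 498 and 424 normalized counts in the WT26 inputs to 190 and 81.0 in the IPs, while MER65-int in RBC went from 98.9 and 85.8 to 26.7 and 8.05, where few reads remain.

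By class, the 52 LTRs with a shared name had median log2 ratios of -1.31 in WT26, -1.26 in RBC, -1.17 in Mettl14 KO and -0.79 in Mettl3 KO, with 28, 20, 19 and 1 called lower. The 14 internal regions with a shared name were similar (-1.42, -1.26, -0.94 and -0.74; 6, 4, 3 and 0 called lower). The 38 members of other rodent names followed with -1.06, -0.91, -0.95 and -0.58 (20, 14, 13 and 0), and the 14 gammaretrovirus-like LTRs with -0.80, -0.75, -0.72 and -0.39 (3, 3, 4 and 0). The 9 gammaretrovirus-like internal regions had medians of 0.22, 0.09, -0.10 and -0.30, and 0 of them were called lower in any line. By replicate number, their medians in the same order were -0.15, 0.01, -0.24 and -0.23 for number 1 and 0.35, 0.16, -0.14 and -0.33 for number 2, and those of the 14 gammaretrovirus-like LTRs were -0.49, -0.51, -0.38 and -0.18, and -1.05, -1.12, -1.27 and -0.60. The median of these internal regions lay above that of the gammaretrovirus-like LTRs in both numbers, except in Mettl3 KO number 1.

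**Figure D2:**
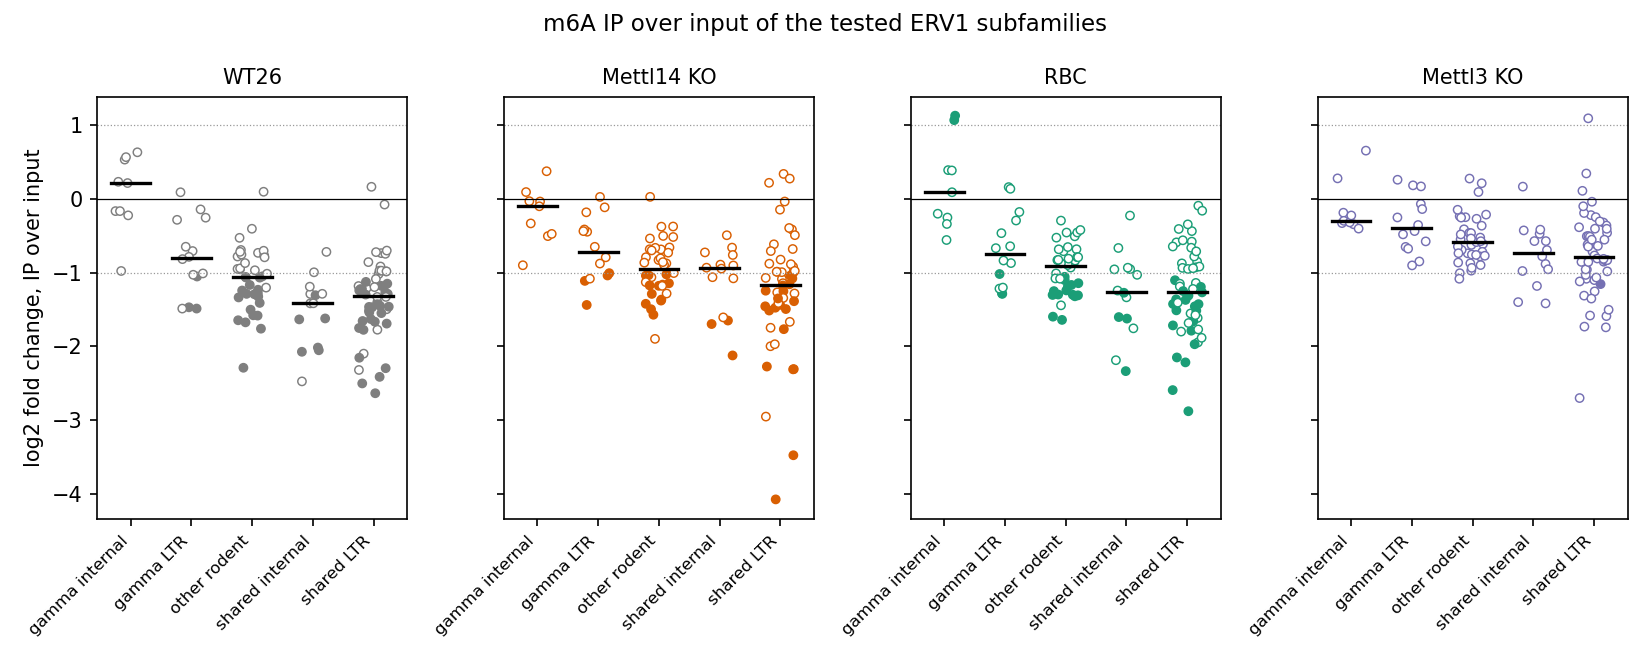
Log2 ratio of IP to input of each of the 127 members tested, in 1 panel for each line and by class (gamma, mouse gammaretrovirus-like; shared, name shared with other mammals); filled points were called, bars are class medians and dotted lines mark -1 and 1. The gammaretrovirus-like internal regions have the highest class median in each panel, from -0.30 to 0.22, and 1 point is called in Mettl3 KO.

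Among the internal regions, MMERGLN-int had 13481 and 12249 normalized counts in the RBC inputs and 21611 and 32347 in the IPs. The WT26 inputs held 5106 and 5010 and the IPs 5589 and 10095, the Mettl3 KO inputs 10205 and 10747 and the IPs 13211 and 19778, and the Mettl14 KO inputs 4644 and 4567 and the IPs 4159 and 5668. IP values lay above the inputs in 3 lines and overlapped them in Mettl14 KO, and the IP of number 2 was higher than that of number 1 in each line. The log2 ratio was 1.07 in RBC (SE 0.32, adjusted p = 0.0276), 0.63 in WT26 (0.136), 0.65 in Mettl3 KO (0.214) and 0.09 in Mettl14 KO (0.847).

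RLTR4_MM-int rose in the RBC IP in the same way, from 7064 and 7352 normalized counts in input to 11129 and 20396 in IP, a log2 ratio of 1.13 (SE 0.35, adjusted p = 0.0302). The WT26 ratio was 0.57 (0.212), that of Mettl14 KO 0.38 (0.427) and that of Mettl3 KO 0.28 (0.643). Both members were also called with the block on replicate number within input and within IP (1.04 for MMERGLN-int, 1.07 for RLTR4_MM-int). Without RBC replicate 2 the ratio in RBC was 0.66 for RLTR4_MM-int and 0.69 for MMERGLN-int, both below the log2 limit of 1. Without RBC replicate 1 these ratios were 1.47 and 1.40. The adjusted p of RLTR4_MM-int in RBC was just past 0.05 without Mettl3 KO replicate 1 (0.0529) or replicate 2 (0.0532).

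MuLV-int, the internal region of murine leukemia virus itself, had 352 and 348 normalized counts in the WT26 inputs and 329 and 686 in the IPs, a log2 ratio of 0.53 (adjusted p = 0.199). RLTR6-int had ratios between -0.22 and 0.22, and MMVL30-int, from VL30, had ratios between -0.56 and -0.17. MuRRS-int and MuRRS4-int, from murine retrovirus-related sequences, ranged from -0.47 to -0.17 and from -0.40 to 0.23. None of these passed both criteria in any line.

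MURVY-int, from a gammaretrovirus-like element amplified on the Y chromosome, differed between lines. It had 568 and 592 normalized counts in the WT26 inputs and 285 and 304 in the IPs, and 1248 and 1160 against 738 and 551 in Mettl14 KO. In RBC the inputs held 1691 and 1881 and the IPs 1878 and 2791, and in Mettl3 KO 2719 and 2426 against 2288 and 1839. IPs lay below inputs except in RBC, where the values overlapped. The log2 ratios were -0.98 in WT26 (adjusted p = 0.0116), -0.90 in Mettl14 KO (0.0190), 0.39 in RBC (0.224) and -0.32 in Mettl3 KO (0.419), so MURVY-int passed the p limit in the first pair of lines without reaching a log2 size of 1.

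The internal regions were then set against their own LTRs. The ratio of internal to LTR reads within a library does not depend on the scaling between libraries. It was formed for the 8 elements in which both parts were tested under matching names, a set chosen after their values were seen, and is given without a test. The MMERGLN internal region outweighed its LTR by more in IP than in input in 8 of 8 input and IP pairs.

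In WT26, log2 internal over LTR of MMERGLN was 2.34 and 2.32 in the inputs and 3.06 and 4.34 in the IPs; in Mettl14 KO it was 2.37 and 2.36 against 2.68 and 3.53. In RBC it was 3.36 and 3.32 against 4.09 and 5.33, and in Mettl3 KO 3.40 and 3.27 against 3.90 and 4.17. Thus the inputs of the same line agreed closely while the IPs of number 2 lay above those of number 1. The difference, IP minus input, was 1.05 ± 0.65 (mean ± SD over 8 pairs), with line means of 1.37 in WT26, 0.74 in Mettl14 KO, 1.37 in RBC and 0.70 in Mettl3 KO.

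RLTR14, a rodent ERV1, had a smaller but steadier difference of 0.32 ± 0.10, from 0.19 to 0.52 and above 0 in 8 of 8 pairs. MURVY also lay above 0 in 8 of 8 (0.48 ± 0.64), with a mean of 1.40 in RBC and of 0.08 to 0.35 in the other lines. RLTR4 (0.48 ± 0.54, 6 of 8), MERV1 (0.48 ± 0.43, 7 of 8), RLTR6 (0.14 ± 0.54, 4 of 8) and MER34 (0.01 ± 0.32, 4 of 8) had both signs. MER110 was below 0 in 8 of 8 (-0.90 ± 0.41), on 4 to 36 internal reads in an IP library.

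**Figure D3:**
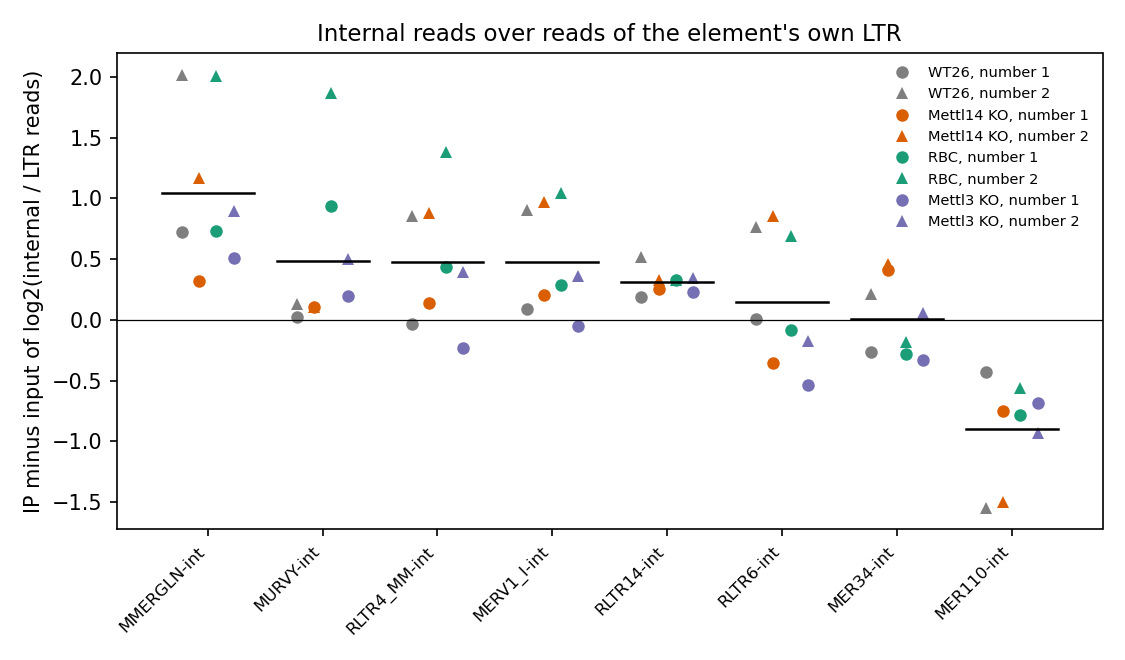
Log2 internal over LTR reads in IP minus the same in input, for 8 elements; each point is 1 pair of input and IP libraries, bars are means over the 8 pairs, and 0 means the same ratio in both. MMERGLN, MURVY and RLTR14 lie above 0 in every pair and MER110 below 0 in every pair.

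Input levels were compared next, to ask whether ERV1 transcripts change when Mettl14 or Mettl3 is lost. In the fit to all 16 libraries, 1 input difference was called among the members, and it lay between the 2 control lines: MURVY-int was higher in RBC than in WT26. The summed ES cell markers were lower in both knockouts, as given above, and their part in the input differences was not tested.

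For Mettl14 KO against WT26, 0 of 127 members were called higher, against 0.124% of all features, and 0 lower, against 0.274%. For Mettl3 KO against RBC, 0 were higher, against 0.181%, and 0 lower, against 0.579%. For RBC against WT26, 1 (0.787%) was higher, against 0.305%, and 0 lower, against 0.279%. The difference between both knockout effects was called for 0 members, against 0.141% of features. At an unadjusted p under 0.05 edgeR gave 2, 3, 6 and 1 members in these 4 comparisons. Of all 22621 features, 2389, 2638, 1838 and 1600 were under this limit. DESeq2 called 1, 0, 3 and 0 members. With the block on replicate number within input and within IP, 1 was higher for Mettl14 KO, 1 higher and 4 lower for Mettl3 KO, and 6 higher for RBC against WT26. The shares above are from the fit without this block.

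The input libraries alone vary less than the IP libraries, and a fit to these 8 libraries gave more calls, in 126 members of 20341 features. For Mettl14 KO against WT26, 2 were higher (2.63% of all features) and 0 lower (4.77%). For Mettl3 KO against RBC, 2 were higher (3.20%) and 4 lower (6.72%). For RBC against WT26, 6 were higher (2.34%) and 1 lower (2.01%), and 1 member differed between the knockout effects (2.65%). For Mettl14 KO, 11 members were higher and 5 lower at an unadjusted p under 0.05, against 4634 of the 20341 features in either direction. The members' shares were below these backgrounds except for RBC against WT26, higher.

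MURVY-int had the largest difference among the members called. As given above, its inputs held 568 and 592 normalized counts in WT26 and 1691 and 1881 in RBC, with no overlap, a log2 difference of 1.62 (SE 0.24, edgeR adjusted p = 0.00632). Without RBC replicate 2 it was 1.54 (adjusted p = 0.0414), and the call was lost without WT26 replicate 1 (1.59, adjusted p = 0.171) or replicate 2 (1.65, adjusted p = 0.105). In the fit to inputs alone it was also higher in Mettl14 KO than in WT26 (1.04, SE 0.12, adjusted p = 0.00154) and in Mettl3 KO than in RBC (0.51, adjusted p = 0.0215). The LTR of the same element, MURVY-LTR, had 1061 to 1347 normalized counts in all 8 inputs and was not called in any of the 3 comparisons.

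Genes of the Y chromosome moved in another order than MURVY-int. The WT26 inputs held 806 and 916 normalized counts of Uty, the Mettl14 KO inputs 1504 and 2149, the RBC inputs 36.0 and 310, and the Mettl3 KO inputs 251 and 241. For Ddx3y, which encodes an RNA helicase, these were 552 and 633 (WT26), 1100 and 1269 (Mettl14 KO), 43.8 and 174 (RBC), and 75.4 and 94.7 (Mettl3 KO). Both were higher in Mettl14 KO than in WT26, as MURVY-int was, but lower in both RBC libraries than in WT26, while MURVY-int was 3.08-fold higher in RBC. Kdm5d, another histone demethylase gene, had 55.2 and 37.6 normalized RNA-seq counts in WT26 and 998 and 963 in Mettl14 KO. Their part in the MURVY-int differences was not tested.

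MMERGLN-int had 5106 and 5010 normalized counts in the WT26 inputs against 13481 and 12249 in RBC, a log2 difference of 1.33 in the fit to inputs (adjusted p = 1.1e-04). RLTR4_MM-int, with 3381 and 3325 in WT26 and 7064 and 7352 in RBC, was higher by 1.09 (adjusted p = 2.9e-04), and its LTR RLTR4_Mm, with 643 and 613 against 1053 and 1064, by 0.74 (adjusted p = 0.0102). RLTR5_Mm, an LTR, had 159 and 103 against 304 and 352, a difference of 1.28 (adjusted p = 0.0127), and RLTR14-int 2318 and 2235 against 3415 and 3362, a difference of 0.56 (adjusted p = 0.0194). In none of these did the control lines overlap. In the fit to all 16 libraries only MURVY-int was called; MMERGLN-int had an adjusted p of 0.0966 and RLTR4_MM-int of 0.258. LTRIS_Mm, named after its values were seen, was lower in RBC (536 and 554 against 753 and 862; -0.58, adjusted p = 0.0234).

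Against RBC, Mettl3 KO had lower inputs of RLTR4_MM-int, 4912 and 4475 normalized counts against 7064 and 7352 (log2 difference -0.64, SE 0.10, adjusted p = 0.00449). RLTR4_Mm was lower as well, 706 and 690 against 1053 and 1064 (-0.62, adjusted p = 0.0138), so both parts of this element fell. RLTR1D2_MM, an LTR, had 726 and 674 against 981 and 1106 (-0.60, adjusted p = 0.0107), and LTRIS2 4149 and 4347 against 5595 and 5495 (-0.41, adjusted p = 0.0318). MuRRS-int was higher, 1774 and 1549 against 1045 and 1146 (0.58, adjusted p = 0.0230).

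Mettl14 KO had more MuRRS4-int than WT26, 3120 and 2852 normalized counts against 2063 and 2044 (0.53, SE 0.11, adjusted p = 0.0195). In Mettl3 KO the same internal region had 1847 and 1721 against 2145 and 2014 in RBC, and the difference of the knockout effects, Mettl3 minus Mettl14, was -0.77 (SE 0.16, adjusted p = 0.0321). This was the one member whose knockout effects were called different from each other. RLTR4_MM-int, by contrast, was nearly level between Mettl14 KO (3189 and 3300) and WT26 (3381 and 3325).

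The counts from the fit to inputs moved when 1 library was left out. For RBC against WT26, 3 to 6 members were higher, with 3 without WT26 replicate 2, and the call of LTRIS_Mm as lower was lost when any 1 of these 4 libraries was left out. For Mettl3 KO against RBC, the 2 higher went to 0 when any 1 of its 4 libraries was left out, and the 4 lower went to 0 without Mettl3 KO replicate 2, to 1 without Mettl3 KO replicate 1 and to 2 without either RBC library. For Mettl14 KO against WT26, the 2 higher went to 1 without WT26 replicate 1, WT26 replicate 2 or Mettl14 KO replicate 1.

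**Figure D4:**
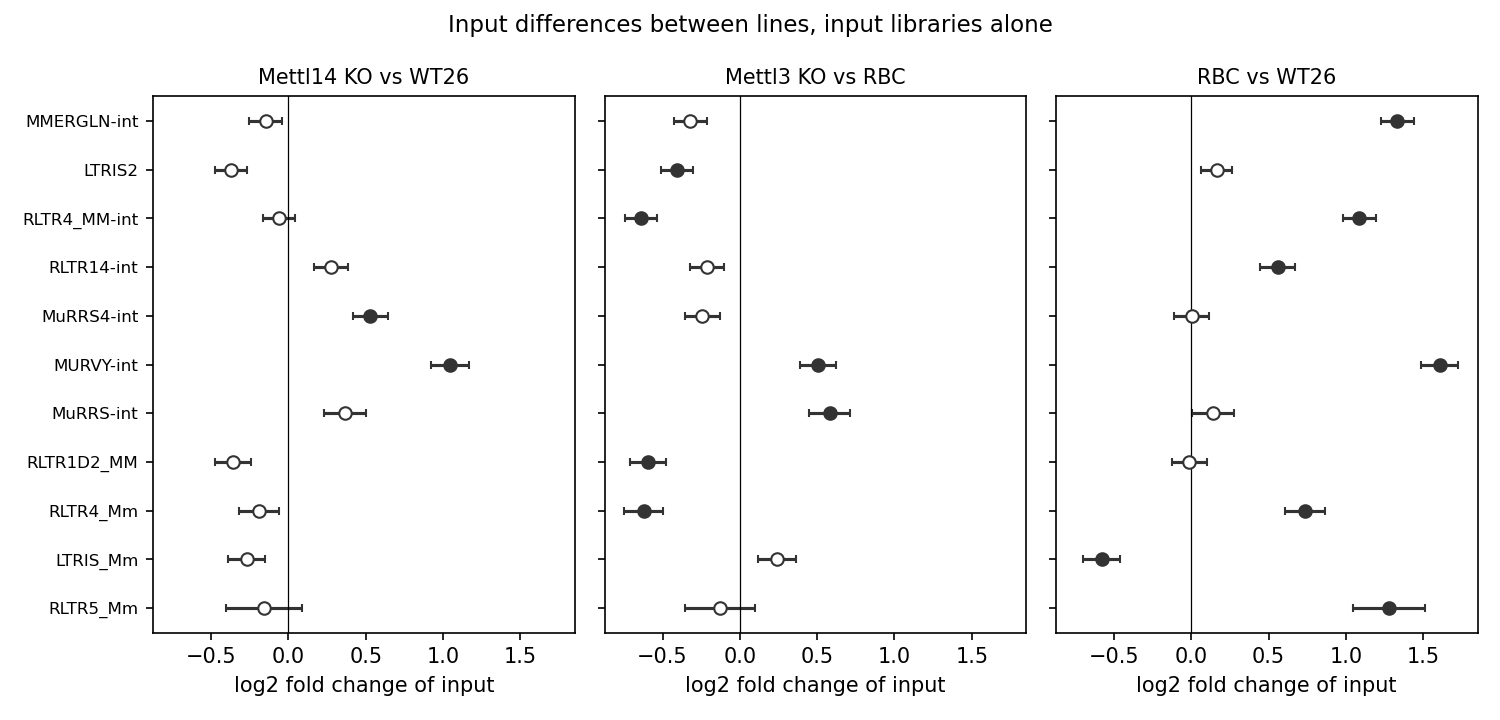
Log2 difference in input level (fit to the 8 input libraries; bars are 1 standard error) of 11 members in Mettl14 KO against WT26, Mettl3 KO against RBC and RBC against WT26; filled points had an adjusted p of at most 0.05. Of the members plotted, the largest differences, 1.61 for MURVY-int and 1.33 for MMERGLN-int, separate the 2 control lines.

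The change in IP over input asks whether loss of Mettl14 or Mettl3 changes how strongly ERV1 RNA is recovered by the m6A antibody, beyond its change in input. No change was called for any of the 127 members. The gammaretrovirus-like internal regions and the gammaretrovirus-like LTRs had medians of opposite sign with DESeq2 size factors and with TMM. Both medians were below 0 with size factors from repeats, and also for Mettl14 KO in the libraries of number 2.

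For Mettl14 KO against WT26, for Mettl3 KO against RBC and for RBC against WT26, 0 members were called, against 0%, 0% and 0% of all features. At an unadjusted p under 0.05, edgeR gave 1 member in each (LTR9A1, LTR34 and MURVY-int), and DESeq2 called 0. Of all 22621 features, edgeR gave 126, 787 and 133 under this limit. LTR9A1 and LTR34 had means of only 19.4 and 15.2 normalized counts in input. MURVY-int differed between the control lines by 1.36 (SE 0.34, unadjusted p = 0.00128, adjusted p of 1), with 1.14 for number 1 and 1.53 for number 2.

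The median change in the log2 ratio of IP to input over 127 members was 0.15 for Mettl14 KO, with 91 members above 0, and 0.40 for Mettl3 KO, with 110. Over all repeats it was 0.16 and 0.46, and over all features 0.02 and 0.01, so the members moved much as other repeats did.

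The 9 gammaretrovirus-like internal regions had a median change of -0.28 for Mettl14 KO and -0.31 for Mettl3 KO, with 1 of 9 above 0 in each. The 14 LTRs of such elements had medians of 0.09 and 0.36, with 11 and 14 of 14 above 0. For libraries of number 1, 2 of 9 internal regions were above 0 in each knockout (medians -0.07 and -0.16), and for number 2, 0 of 9 (-0.50 and -0.47). The LTRs above 0 were 11 and 12 of 14 for number 1, and 6 and 12 for number 2, with medians of 0.14 and 0.31, and of -0.07 and 0.45. With TMM scaling these numbers above 0 were 1, 1, 11 and 14 again. With repeat size factors, which move the median of all features to -0.15 and -0.52, 0 of 9 internal regions were above 0 in both knockouts (medians -0.49 and -0.92), and 4 and 2 of 14 LTRs.

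MMERGLN-int had a change of -0.54 in Mettl14 KO (SE 0.45, adjusted p of 1) and of -0.41 in Mettl3 KO (SE 0.45, adjusted p = 0.854). RLTR4_MM-int had -0.19 (SE 0.49) and -0.85 (SE 0.49, adjusted p = 0.854). MuLV-int had -0.57 and -0.58, and MURVY-int 0.08 and -0.70 (SE 0.34, unadjusted p = 0.0548). None of these changes was called, and the sign for RLTR4_MM-int in Mettl14 KO turned without WT26 replicate 2 (0.33) or without Mettl14 KO replicate 1 (0.10).

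As a share of reads, the members made up 0.497% ± 0.0530 of the WT26 IP libraries, 0.478% ± 0.130 of Mettl14 KO, 0.714% ± 0.0356 of RBC and 0.672% ± 0.0421 of Mettl3 KO (mean ± SD, n = 2). The IP shares of RBC and Mettl3 KO exceeded those of WT26 and Mettl14 KO, while each knockout overlapped its own control. A large part of the RBC reads lay on MMERGLN-int and RLTR4_MM-int. These held 40509 and 20860 of 195984 member reads in RBC IP 1, and 32158 and 20277 of 103868 in IP 2. In WT26 they held 9581 and 5991 of 122710 in IP 1, and 11222 and 7157 of 74585 in IP 2.

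**Figure D5:**
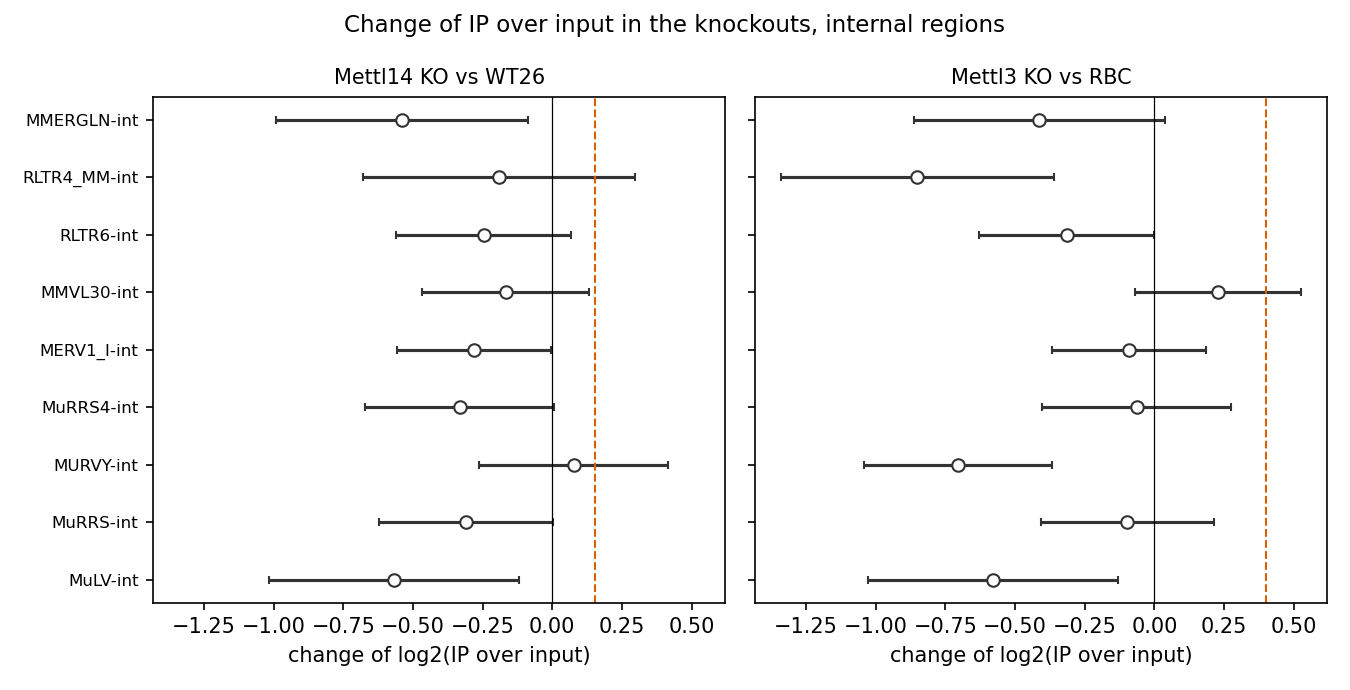
Change in the log2 ratio of IP to input of the 9 gammaretrovirus-like internal regions in Mettl14 KO against WT26 and in Mettl3 KO against RBC (bars are 1 standard error; the dashed line is the median of all 127 members, 0.15 and 0.40). In each knockout 8 of the 9 points lie below 0, and none was called.

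RNA-seq gene counts were used to describe a list of 50 gene names chosen for silencing of endogenous retroviruses in general. The 49 found in the counts were tested, at an adjusted p of at most 0.05. In Mettl14 KO, 9 of 49 rose, against 25.5% of all 17021 genes, and 28 of 49 fell, against 27.0%. Their median log2 difference was -0.20. In Mettl3 KO, 16 of 49 rose, against 25.2%, and 19 of 49 fell, against 28.1%, with a median of -0.07. Past 2-fold, 0 rose and 2 fell in Mettl14 KO, and 1 rose and 2 fell in Mettl3 KO. The RBC replicates differed from each other more than those of the other lines, and without RBC replicate 1 the count of genes that rose in Mettl3 KO was 10.

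Dnmt3l, a cofactor of the de novo DNA methyltransferases, had 191 and 183 normalized counts in Mettl14 KO against 775 and 860 in WT26, a log2 difference of -2.12 (edgeR adjusted p = 6.5e-12), and it also fell in Mettl3 KO (-1.46). Apobec3, a cytidine deaminase that restricts retroviruses, had 258 and 272 against 547 and 560 in WT26 (-1.06). Resf1 (-0.95), Setdb1 (-0.74) and Kdm1a (-0.55), a histone demethylase, also fell in Mettl14 KO. Trim28, the corepressor of the KRAB zinc finger proteins, fell by 0.54 on the log2 scale in Mettl14 KO and by 0.74 in Mettl3 KO.

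In Mettl3 KO, Zfp57, a KRAB zinc finger gene that guards imprinted loci, had 3280 and 3384 normalized counts against 10047 and 10160 in RBC (-1.60, adjusted p = 1.6e-13), and Dnmt1, the maintenance DNA methyltransferase, fell (-0.69), as did Yy1 (-0.48). Rlim, an E3 ubiquitin ligase gene, rose by 1.03. Suv39h1, an H3K9 methyltransferase gene, rose by 0.90 in Mettl14 KO and by 0.50 in Mettl3 KO, and Dnmt3a by 0.66 and 0.48. Other increases were H3f3b (0.68), Rlim (0.68) and Sumo2 (0.56) in Mettl14 KO, and Pphln1 (0.49) and Zfp91 (0.44) in Mettl3 KO. Decreases thus outnumbered increases among the 49 silencing genes, by 28 to 9 for Mettl14 KO. For Mettl3 KO the counts lay closer, 19 down against 16 up. Many of all 17021 genes also moved each way, so movement in both directions was not particular to this list. The fit to inputs called changes in 2 to 6 members per knockout, and a link between the gene and ERV1 values was not tested. The summed ES cell markers were lower in both knockouts. The primitive endoderm markers were higher in Mettl14 KO than in WT26 and lower in Mettl3 KO than in RBC. The neural markers went the other way in each knockout. The part of such differences in the silencing genes was not tested.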

How the data were processed

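Per the labels and the study's methods, cutadapt 1.8.1 removed adapters, STAR 2.6.0c mapped reads to GRCm38 with up to 100 positions each, and the authors counted genes and RepeatMasker subfamilies with TEtranscripts 2.0.3 (multi mode). Each MeRIP-seq replicate combined 3 reactions on nuclear RNA. The deposited values are raw counts of 49090 features in 16 libraries, and of 47937 genes in 8 RNA-seq libraries, whose counting tool was not given in the sources used here. A read with several positions is shared among subfamilies, so counts of near-identical subfamilies, and of an LTR and a neighboring internal region, are estimates.

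Low features were removed with filterByExpr, libraries were scaled with DESeq2 size factors, and edgeR 4.0.16 (R 4.3.3) fitted a quasi-likelihood model to all libraries of a table, with Benjamini-Hochberg adjustment over all features. Input differences and changes in IP over input needed an adjusted p no higher than 0.05, and IP over input also needed a log2 fold change above 1 in size. Ratios within a library used a pseudocount of 0.5. DESeq2 1.42.0, TMM and other settings were alternatives. Simulated data were used to check the edgeR fit for IP over input in WT26. They were also used for Mettl14 KO against WT26 in input (all libraries and inputs alone), change in IP over input and RNA-seq. Other comparisons, the blocks and DESeq2 were not simulated. The simulated replicates varied independently, without a deviation shared by libraries of the same number. Libraries of 9394163 to 28441282 counts leave the 19 rarest members untestable.

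Input and IP with the same line and number come from the same RNA sample, and their deviations from the group means correlated by 0.195 to 0.280 in the 4 lines, so the pair block was fitted as an alternative. What the number marks across lines is not given in the sources used here, but libraries of the same number deviated together between lines (0.598 to 0.806 for IP, 0.251 to 0.452 for input), so blocks on the number were fitted as alternatives.

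Named members were the 10 with the highest mean input, the gammaretrovirus-like elements, and up to 5 called members per direction whose mean normalized count was 50 or more. Name classes and gene lists, like the members, were chosen with earlier results of these data known. Repeat sequences are not shown.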

Additional observations from a re-analysis of the deposited data

Results flagged for a closer look

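MuRRS4-int, an internal region of the murine retrovirus-related sequences, responded differently to both knockouts in the fit to the 8 input libraries: the knockout effects differed by -0.77 on the log2 scale (Mettl3 minus Mettl14; SE 0.16, edgeR adjusted p = 0.0321). Its level was 3120 and 2852 normalized counts in Mettl14 KO against 2063 and 2044 in WT26, and 1847 and 1721 in Mettl3 KO against 2145 and 2014 in RBC. The fit to all 16 libraries and DESeq2 called 0 members for this difference, and so did the fit to inputs without WT26 replicate 1 or 2, Mettl14 KO replicate 1, RBC replicate 1, or Mettl3 KO replicate 1 or 2. The cause was not tested.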

How the results depend on the processing

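Counts below are members called higher/lower unless said. Shares of all features are given above for the main fits and the fit to inputs only. DESeq2 gave 1 higher in input for Mettl14 KO, 3 for RBC against WT26, and 4 lower in the Mettl3 KO IP. Without the filter on low counts these were 1, 4 and 11. TMM moved no count by over 1.5 times. Repeat size factors gave 0 higher in input for RBC against WT26, 13 higher and 2 lower in the WT26 IP, 10 and 3 in RBC, 6 and 2 in Mettl14 KO and 0 lower in Mettl3 KO, and turned the sign of LTR78B (0.065), MER90a (0.12), MLTR14 (0.095), MURVY-LTR (0.31) and RMER5 (0.0075) in WT26, MLTR14 (0.0050) and MURVY-LTR (0.19) in RBC, and MERV1_LTR (0.091), MURVY-LTR (0.17) and RLTR1D (0.027) in Mettl14 KO. The fit to inputs gave 2 higher for Mettl14 KO, 2 higher and 4 lower for Mettl3 KO, 6 higher and 1 lower for RBC against WT26, and 1 for the difference of the knockout effects.

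The sources used here do not say what the replicate numbers share across lines; libraries with the same number deviated together. A replicate block over all libraries gave 1 higher in input for Mettl14 KO, 2 for RBC against WT26, and 62 lower in the RBC IP and 9 in the Mettl3 KO IP. A block within input and within IP, added after seeing the data, gave 1 higher in input for Mettl14 KO, 1 higher and 4 lower for Mettl3 KO, 6 higher for RBC against WT26, and in IP 78 lower in WT26, 2 higher and 67 lower in RBC, 67 lower in Mettl14 KO and 20 in Mettl3 KO. The pair block of input and IP gave 0 lower in Mettl3 KO and changed no other call count by over 1.5 times.

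Leaving out 1 library gave 0 to 64 lower in the WT26 IP, 0 to 2 higher and 0 to 51 lower in RBC, 0 to 45 in Mettl14 KO and 0 to 2 in Mettl3 KO, 0 to 1 higher in input for RBC against WT26, and 0 changes in IP over input in every case. In the fit to inputs it gave 1 to 2 higher and 0 to 1 lower for Mettl14 KO, 0 to 2 and 0 to 5 for Mettl3 KO, 3 to 6 and 0 to 1 for RBC against WT26, and 0 to 1 for the knockout effects. RLTR4_MM-int in Mettl14 KO had a change of -0.58 to 0.33, with 0.33 without WT26 replicate 2 and 0.10 without Mettl14 KO replicate 1. Silencing genes ranged from 6 to 9 up and 23 to 28 down in Mettl14 KO and from 10 to 16 and 13 to 19 in Mettl3 KO, and a 2-fold limit left 0 and 2, and 1 and 2. As a share of repeat reads, ERV1 IP over input was 0.48 in RBC and 0.23 in Mettl3 KO on the log2 scale, against 0.19 and 0.05 as a share of all reads. The cause was not tested for any of these, and low-count members limit what depth can show.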
